A study of Mus musculus with 6 samples.

Results

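Neurexins, neuroligins and LRRTM proteins are cell adhesion proteins best known from synapses, and the levels of 9 of their genes are described here in astrocytes of the upper and the deep cortical layers. The genes were chosen by symbol, as the rows named Nrxn2, Nrxn3, Nlgn1, Nlgn2, Nlgn3, Lrrtm1, Lrrtm2, Lrrtm3 and Lrrtm4, and all 9 were found, each as 1 of the 43383 rows of the table. RNA-seq was performed on astrocytes sorted by fluorescence (FACS) from the somatosensory cortex of male Aldh1l1-eGFP mice at 4 weeks of age, a transgenic line in which the Aldh1l1 promoter drives green fluorescent protein in astrocytes. Upper-layer astrocytes (ULAs) came from layers II–IV and deep-layer astrocytes (DLAs) from layers V and VI, with 3 libraries of each, 1 from each of 3 brains. The dissection discarded the callosal white matter, the meninges and layer I, and it sampled layers IV and V only in part, since the tissue between the upper and deep pieces was not kept.

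Neurexins sit mainly on the presynaptic membrane and bind partners across the cleft, among them the postsynaptic neuroligins and LRRTM proteins. These pairs help to assemble and tune synapses, with neuroligin 2 known from inhibitory synapses and neuroligin 1 and the LRRTM proteins from excitatory synapses. Astrocytes also make neuroligins, which contact neuronal neurexins and shape the fine astrocyte processes around synapses, and astrocytes release linker proteins that bind neurexins and neuroligins.

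Values are RPKM, the read number of an mRNA divided by its length and by the mapped reads of the library, so that levels of different genes can be set side by side per unit of length. From the steps between low RPKM values, the ULA libraries held 24.4 to 26.7 M reads and the DLA libraries 19.7 to 29.6 M reads. Astrocyte markers (12 genes) summed to between 12344.9 and 13273.9 RPKM in ULAs and between 11525.9 and 12422.6 RPKM in DLAs. Neuronal markers (12 genes) summed to 9.24 to 9.57 RPKM in ULAs and 6.7 to 9.16 RPKM in DLAs, and 10 of them, including Rbfox3, Syt1 and Slc17a7, stayed under 1 RPKM in every library. Markers of upper-layer neurons (7 genes) summed to 129 to 132 RPKM in ULAs and 94 to 140 RPKM in DLAs, mostly Rorb, and those of deep-layer neurons (8 genes) summed to 28 to 33.4 RPKM and 23.5 to 36.6 RPKM, mostly Tle4, while Bcl11b was listed at 0. Oligodendrocyte markers (9 genes) summed to 87.1 to 179 RPKM in ULAs and 178 to 281 RPKM in DLAs, and 6 of the 8 tested were higher in DLAs. Markers of oligodendrocyte precursors (8 genes) summed to 85.5 to 97 RPKM in ULAs and 97.5 to 134 RPKM in DLAs, mostly Olig1, while Pdgfra, Gpr17 and Sox10 stayed under 1 RPKM. Microglial, endothelial and pericyte markers gave sums that overlapped between the layers. Of single markers, Rgs5 of pericytes was higher in ULAs (log2 difference 0.77, adjusted p = 0.0455 by limma) and Gfap of astrocytes was higher in DLAs (−0.93, adjusted p = 0.00556). The part of these other cells in the results was not tested. In brains 1 and 2, the ratio of ULAs to DLAs also rose with the genomic span of a gene, as described with Nlgn1.

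ULAs and DLAs were compared by limma on log2(RPKM + 1), in a model of brain and layer with 2-sided p-values that were adjusted by the Benjamini-Hochberg method over the 13999 rows with a mean of at least 1 RPKM. On this scale the change of a gene with a low level is understated. A gene was counted as changed at an adjusted p under 0.05. Of the 9 genes, 5 reached 1 RPKM and were tested (Nrxn2, Nrxn3, Nlgn1, Nlgn3 and Lrrtm2), and 0 of these 5 were changed in either direction, beside 1.63% of all tested rows (0.714% with the higher level in ULAs and 0.914% in DLAs). Nlgn3, 1 of the 5, had an unadjusted limma p under 0.05, beside 16.4% of all tested rows. None of the 5 was changed in the alternative settings in which it was tested, under which 0% to 7.95% of the tested rows passed. The other 4 genes had a p in 1 alternative only, the one without the filter, in which no row of the table passed. In bulk samples, fewer cells of a type and less RNA per cell cannot be told apart.

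Over the 6 libraries the 9 genes spanned a wide range of RPKM, with Nlgn1 at a mean of 86.7 RPKM at the top and Lrrtm4 at 0.12 RPKM at the bottom. Below Nlgn1 came Nlgn3 (14.9 RPKM), Nrxn3 (11.4 RPKM), Nrxn2 (7.8 RPKM) and Lrrtm2 (2.76 RPKM). The other genes, Nlgn2 (0.695 RPKM), Lrrtm3 (0.63 RPKM), Lrrtm1 (0.293 RPKM) and Lrrtm4, stayed under 1 RPKM in every library. Nlgn1 stood clear of the next gene, since its lowest library (75.65 RPKM) was above the highest library of Nlgn3 (17.91 RPKM). The ranges of 4 pairs of neighbours in this order overlapped, namely Nlgn3 with Nrxn3, Nrxn3 with Nrxn2, Nlgn2 with Lrrtm3, and Lrrtm1 with Lrrtm4. Nrxn3 was nevertheless above Nrxn2 in 6 of 6 libraries, whereas Nlgn2 was above Lrrtm3 in 4 of 6.

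**Figure D1:**
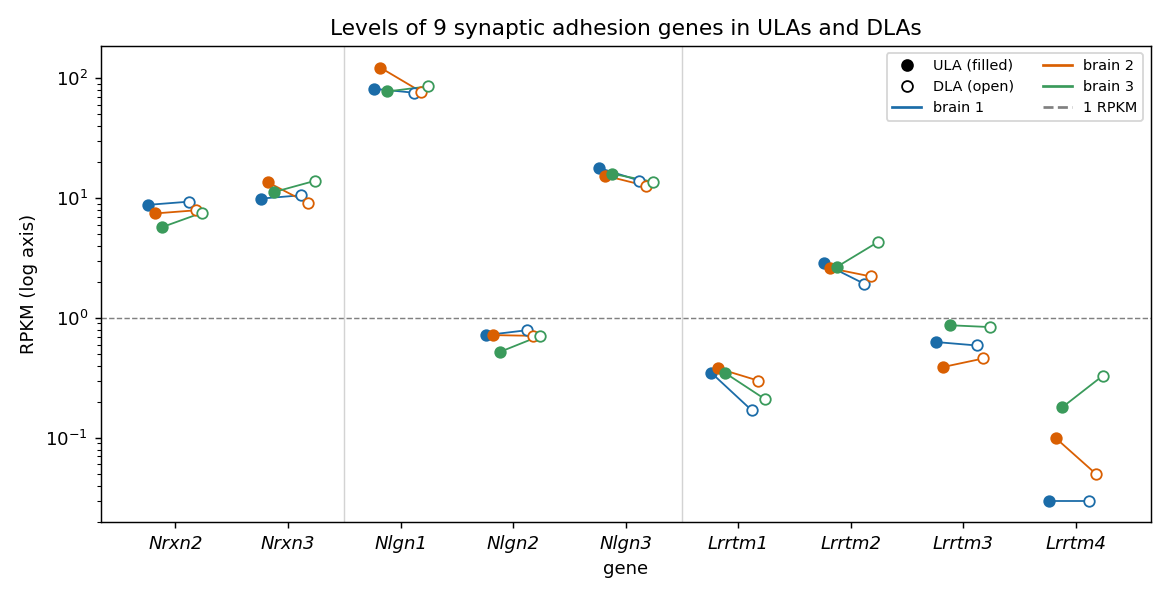
Level of each of the 9 genes in every library (RPKM, log axis), with ULAs as filled and DLAs as open circles, lines joining the libraries of 1 brain, and a dashed line at 1 RPKM. Nlgn1 lies above all other genes in every library (75.65 to 122.63 RPKM), and Nlgn2, Lrrtm1, Lrrtm3 and Lrrtm4 lie below the dashed line.

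Of the neurexin genes described, Nrxn2 (chromosome 19, 6418738 to 6533217, plus strand, build mm9, 23 exons) had ULA levels of 8.79, 7.45 and 5.72 RPKM and DLA levels of 9.34, 7.91 and 7.57 RPKM in brains 1, 2 and 3. DLAs were higher in 3 of 3 brains, as in 23.2% of all tested rows, although the ranges of the layers overlapped. The means were 7.32 ± 1.54 RPKM in ULAs and 8.27 ± 0.939 RPKM in DLAs (SD, n = 3 libraries per layer). The fitted log2 difference of ULAs minus DLAs was −0.17 ± 0.13 (SE; adjusted p = 0.542 by limma, 0.312 to 0.94 over the alternatives). Over the alternatives this difference ran from −0.27 (with the mRNA length correction) to −0.08 (without brain 3). The 95% interval of the fold ran from 0.731 to 1.08.

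The last exon of Nrxn2 lies over antisense rows of the table, which were looked at after their values were seen. A predicted gene on the minus strand (row 100008567, chromosome 19, 6530695 to 6532384) shares 1117 bases with exon 23, which is 16.8% of the Nrxn2 mRNA and 66.1% of the antisense row. Its ULA levels were 8.92, 7.43 and 5.75 RPKM and its DLA levels 13.51, 15.37 and 10.36 RPKM in brains 1, 2 and 3. Its level was thus close to that of Nrxn2 in each ULA library, at 1.01, 0.997 and 1.01 times Nrxn2, and above it in each DLA library, at 1.45, 1.94 and 1.37 times Nrxn2. The antisense row was changed, with a log2 difference of −0.75 ± 0.13 (SE; adjusted p = 0.0176 by limma), and no library of one layer reached those of the other. A shorter antisense row (ENSMUSG00000052188), all 760 bases of which lie within the exon of the first, rested largely on the same reads and had a log2 difference of −0.85 ± 0.12 (SE; adjusted p = 0.00817 by limma). Neither call held with layer as the single term (adjusted p = 0.232 and 0.253) or without the filter on low RPKM (adjusted p = 0.339 and 0.305). The library kits used do not mark the strand of the RNA, so reads on the shared bases of Nrxn2 and these rows cannot be told apart, and 1017 to 1653 reads per library stood behind Nrxn2 beside 259 to 607 behind the longer antisense row.

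Nrxn3 (chromosome 12, 89961320 to 91573373, plus strand, 25 exons) is 1 of the 37 tested rows with a genomic span over 1000 kb, and its own span is 1612.1 kb. ULA levels were 9.91, 13.57 and 11.26 RPKM and DLA levels were 10.56, 9.06 and 13.94 RPKM in brains 1, 2 and 3. The layers overlapped widely and the brains went in different directions, with ULAs higher in brain 2 only and DLAs higher in brains 1 and 3. The means were 11.6 ± 1.85 RPKM in ULAs and 11.2 ± 2.5 RPKM in DLAs (SD, n = 3 libraries per layer), with a log2 difference of 0.06 ± 0.16 (SE; adjusted p = 0.897 by limma, 0.43 to 0.981 over the alternatives). The 95% interval of the fold, 0.813 to 1.33, leaves room for a difference in either direction. Per unit of length, Nrxn3 was at 1.13 to 1.97 times Nrxn2 over the 6 libraries.

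Most of the RPKM of the 9 genes came from the neuroligins, the receptors that neurexins bind across the cleft. The RPKM of Nlgn1, Nlgn2 and Nlgn3 summed to 100, 139 and 93.9 in the ULAs and to 90.5, 90.7 and 99.7 in the DLAs of brains 1, 2 and 3. Nlgn1 made up 81.4% to 88.4% of this sum in every library, Nlgn3 made up 11.1% to 17.9%, and Nlgn2 made up 0.519% to 0.873%. The order Nlgn1, Nlgn3, Nlgn2 therefore held in each of the 6 libraries.

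Nlgn1 (chromosome 3, 25330763 to 26230831, minus strand, 9 exons, span of 900 kb) had ULA levels of 81.66, 122.63 and 77.47 RPKM in brains 1, 2 and 3. Its DLA levels were 75.65, 77.37 and 85.33 RPKM. The ULA library of brain 2 stood above the other 5 libraries, which lay close together, and the layers overlapped. With 8628 to 17824 reads per library on this gene, counting error is small beside that gap. The means were 93.9 ± 25 RPKM in ULAs and 79.5 ± 5.16 RPKM in DLAs (SD, n = 3 libraries per layer), with a log2 difference of 0.21 ± 0.14 (SE; adjusted p = 0.492 by limma). The 95% interval of the fold was 0.93 to 1.44. This value rested on brain 2, since the log2 difference was −0.01 without that brain (adjusted p = 0.973 by limma), and it was 0.38 without brain 3 (adjusted p = 0.0565), the lowest adjusted p of any of the 9 genes over the alternatives. The level was at the 96.9th percentile of mean RPKM among rows above 0.

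**Figure D2:**
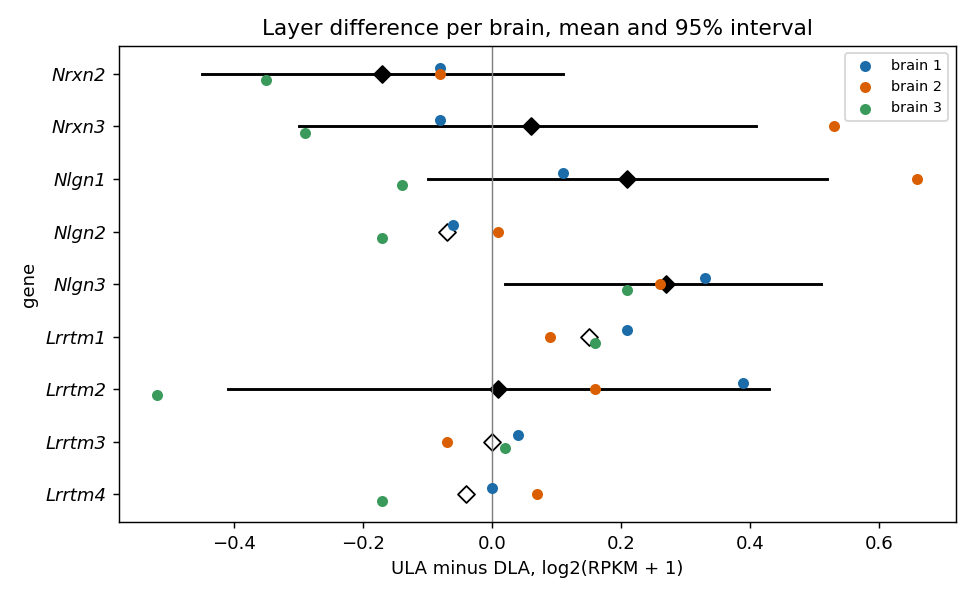
Difference of ULAs minus DLAs for each gene on the log2(RPKM + 1) scale, with coloured points for brains 1, 2 and 3, diamonds for the mean (filled where the gene was tested, open where it stayed under 1 RPKM) and bars for the 95% interval of the limma fit. The points of Nlgn3 lie on the ULA side in 3 of 3 brains (0.21 to 0.33), whereas those of Nrxn3, Nlgn1 and Lrrtm2 fall on both sides of 0.

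Long genes as a class differed between the libraries of brain 2 in the same way as Nlgn1. Of the 326 tested rows that span 300 kb or more, the ULA library of brain 2 was the highest of the 3 ULA libraries in 231 (70.9%), against 27.5% of the rows with a shorter span. Their median log2 difference of ULAs minus DLAs was 0.09, 0.34 and −0.16 in brains 1, 2 and 3. Nlgn1 had 0.11, 0.66 and −0.14 in the same brains and Nrxn3 had −0.08, 0.53 and −0.29, so that both were highest in brain 2 and lowest in brain 3, as the median was. For rows under 10 kb the medians were −0.10, −0.19 and −0.05. Spearman's rho across the 13999 rows between span and the difference was 0.18, 0.38 and −0.00 in brains 1, 2 and 3, where rows are not independent replicates. With the trend on genomic span removed in each brain, a setting chosen after the data had been seen, Nrxn3 had a log2 difference of −0.08 (adjusted p = 0.76 by limma) and that of Nlgn1 was 0.09 (adjusted p = 0.678). The part of genomic span in the values of Nlgn1 and Nrxn3 was not tested further.

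**Figure D3:**
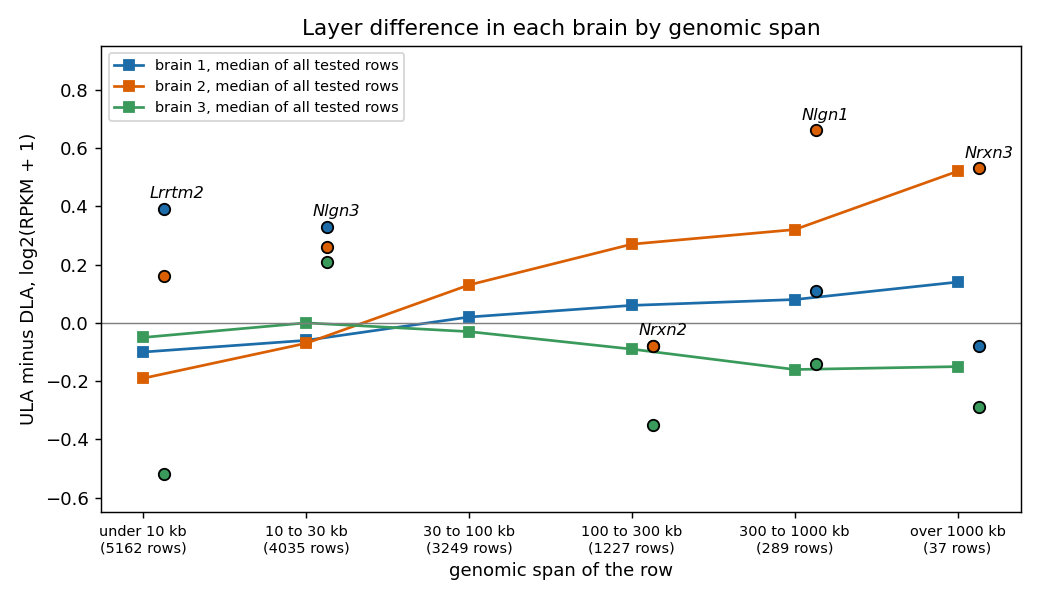
Difference of ULAs minus DLAs on the log2(RPKM + 1) scale by the genomic span of a gene, with squares and lines for the median of all tested rows in each brain and circles for the tested genes in the bin of their span. In rows over 1000 kb the medians were 0.14, 0.52 and −0.15 in brains 1, 2 and 3, and the circles of Nlgn1 and Nrxn3 follow the order of brains 2 and 3.

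Nlgn3 (chromosome X, 98494518 to 98516689, plus strand, 7 exons) was the gene with the most even layer difference of the 5 tested. Its level was 17.91, 15.38 and 15.95 RPKM in the ULAs and 14.01, 12.66 and 13.69 RPKM in the DLAs of brains 1, 2 and 3. ULAs were higher in 3 of 3 brains, as in 15.2% of all tested rows, at 1.28, 1.21 and 1.17 times the DLA level, and the lowest ULA library lay above the highest DLA library, as in 6.59% of all tested rows. The means were 16.4 ± 1.33 RPKM in ULAs and 13.5 ± 0.705 RPKM in DLAs (SD, n = 3 libraries per layer). The log2 difference was 0.27 ± 0.11 (SE; unadjusted p = 0.0369, adjusted p = 0.27 by limma, 0.202 to 0.919 over the alternatives), so the gene failed the correction for the number of rows tested. The 95% interval of the fold was 1.01 to 1.43. With a genomic span of 22.2 kb, Nlgn3 lies in a class whose median difference was −0.06, −0.07 and 0.00 in brains 1, 2 and 3.

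Nlgn2 (chromosome 11, 69636625 to 69648351, minus strand, 7 exons), the neuroligin of inhibitory synapses, was at 0.72, 0.72 and 0.52 RPKM in the ULAs and at 0.79, 0.71 and 0.71 RPKM in the DLAs. It stayed under the level needed for the test and rested on 69 to 105 reads per library. The layers overlapped, with means of 0.653 ± 0.115 RPKM in ULAs and 0.737 ± 0.0462 RPKM in DLAs (SD, n = 3 libraries per layer). Without the filter its unadjusted limma p was 0.498.

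LRRTM proteins are leucine-rich repeat receptors of the postsynaptic membrane, and their 4 genes together reached 3.86, 3.47 and 4.08 RPKM in the ULAs and 2.72, 3.03 and 5.67 RPKM in the DLAs of brains 1, 2 and 3. Lrrtm2 made up 65.7% to 75.7% of this sum. The DLA library of brain 3 was the highest and the DLA library of brain 1 the lowest, so the spread within DLAs enclosed all ULA values.

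Lrrtm2 (chromosome 18, 35368663 to 35374678, minus strand, 2 exons) was at 2.85, 2.6 and 2.68 RPKM in the ULAs and at 1.93, 2.22 and 4.29 RPKM in the DLAs. The 3 ULA libraries lay close together, whereas the DLA library of brain 3 stood above and the other DLA libraries below them. The means were 2.71 ± 0.128 RPKM in ULAs and 2.81 ± 1.29 RPKM in DLAs (SD, n = 3 libraries per layer). The log2 difference was 0.01 ± 0.19 (SE; adjusted p = 0.984 by limma), with a 95% interval of 0.754 to 1.35 for the fold of RPKM + 1. The ratio of ULA to DLA RPKM was 1.48, 1.17 and 0.625 in brains 1, 2 and 3. Of the 6 libraries, the DLA library of brain 3 also had the highest sum of oligodendrocyte markers (281 RPKM). Its sum of neuronal markers was the lowest (6.7 RPKM). Its sums of upper-layer (140 RPKM) and deep-layer neuron markers (36.6 RPKM) were the highest. The part of any of these in Lrrtm2 was not tested.

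Lrrtm1 (chromosome 6, 77192711 to 77195511, plus strand, 2 exons) was at 0.35, 0.38 and 0.35 RPKM in the ULAs and at 0.17, 0.3 and 0.21 RPKM in the DLAs. Every ULA library was above every DLA library, as in 6.59% of all tested rows, but each value rested on 11 to 25 reads. The gene was too low for the test, and without the filter its unadjusted limma p was 0.053 and its adjusted p was 0.501. The log2 difference was 0.15 with a pseudocount of 1 RPKM and 0.51 with a pseudocount of 0.1 RPKM.

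Lrrtm3 (chromosome 10, 63391245 to 63553003, minus strand, 3 exons) had a mean of 0.63 RPKM in each layer, with an SD of 0.24 in ULAs and 0.193 in DLAs (n = 3 libraries per layer). Its libraries ran from 0.39 to 0.87 RPKM, lowest in both layers of brain 2 and highest in both layers of brain 3, so its values differed more between brains than between layers. Lrrtm4 (chromosome 6, 79969637 to 79974926, plus strand, 2 exons) was at 0.03, 0.1 and 0.18 RPKM in the ULAs and 0.03, 0.05 and 0.33 RPKM in the DLAs, on 2 to 33 reads per library. Both genes were too low for the test, and without the filter the unadjusted limma p was 0.967 for Lrrtm3 and 0.578 for Lrrtm4. The part of read depth in these values was not tested. In addition, 45.6% of the Lrrtm4 mRNA is shared with an antisense row (ENSMUSG00000086739) of similar level, and their reads cannot be told apart.

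Lrrtm1, Lrrtm2 and Lrrtm3 each lie within another gene, on the opposite strand and without shared exon bases, and all 3 of these host genes encode alpha-catenins of adherens junctions. The host of Lrrtm1, Ctnna2, had means of 81.2 ± 29.8 RPKM in ULAs and 74.7 ± 21.6 RPKM in DLAs (SD, n = 3 libraries per layer), far above Lrrtm1. Ctnna1, the host of Lrrtm2, was at 33.8 ± 1.06 and 34.7 ± 1.09 RPKM and varied little between libraries, unlike Lrrtm2. The host of Lrrtm3, Ctnna3, was at 1.29 ± 0.225 and 1.11 ± 0.351 RPKM. None of the hosts was changed (adjusted p = 0.801, 0.894 and 0.758 by limma).

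Partners of these proteins were described in lists of 88 genes in all, of which 54 reached 1 RPKM. Of these 54, 2 were higher in ULAs (Dag1 and Ntng1) and 0 were higher in DLAs, beside 0.714% and 0.914% of all tested rows, and 8 had an unadjusted limma p under 0.05, beside 16.4% of all tested rows. The median log2 difference of the 54 was 0.09, beside −0.03 for all tested rows. Of the 54 values, 40 were above and 14 below 0, against 6295 above and 7704 below among all tested rows. The 40 include Sparcl1 and Magi2, whose values round to 0.00. Of the 16 tested partners that span 300 kb or more, 14 were highest in the ULA library of brain 2 among the ULAs, against 10 of the 38 with a shorter span.

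**Figure D4:**
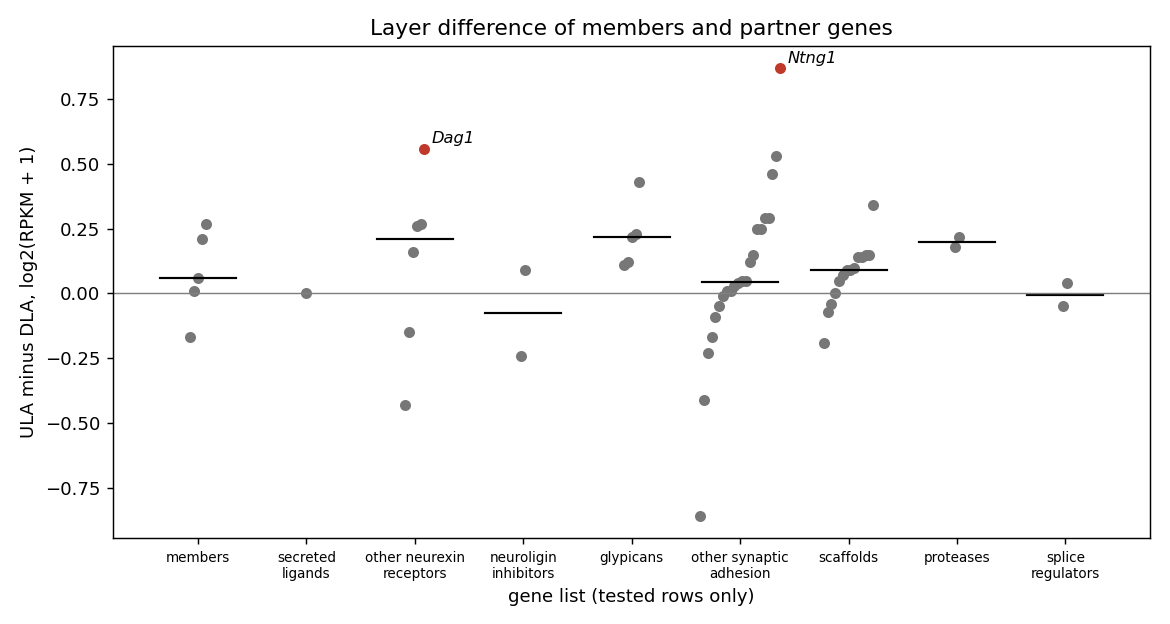
Difference of ULAs minus DLAs on the log2(RPKM + 1) scale for the 5 tested genes and the 54 tested partners by list, with 1 point for each gene, a black line at the median of each list with more than 1 point, and red for an adjusted p under 0.05. Dag1 (0.56) and Ntng1 (0.87) are the red points, and the gene lowest on the plot (−0.86) is Lrfn4, whose adjusted p was 0.0589.

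Secreted proteins that bind neurexins, some of which bridge them to receptors, were mostly low. Of 13 listed, 12, including all listed cerebellins and C1q-like proteins, stayed under 1 RPKM on average. The most abundant of these was C1ql3, with means of 0.353 RPKM in ULAs and 0.297 RPKM in DLAs. Sparcl1 (hevin), the astrocyte protein that links neurexins to neuroligin 1, was instead among the most abundant mRNAs of the table, at 2260.64, 1969.56 and 2275.25 RPKM in the ULAs and 2148.16, 2116.78 and 2218.93 RPKM in the DLAs. The layers overlapped, and the log2 difference was 0.00 ± 0.09 (SE; adjusted p = 0.994 by limma) with a 95% interval of the fold of 0.866 to 1.16.

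Other receptors of neurexins were tested for 6 of 7 genes, with a median log2 difference of 0.21 and 1 call. Dag1, which encodes dystroglycan, a neurexin ligand that in astrocytes is best known from the endfeet on blood vessels, was at 79.95, 64.13 and 58.29 RPKM in the ULAs. In the DLAs it was at 54.97, 42.7 and 38.83 RPKM, so that every ULA library was above every DLA library and each brain gave a similar ratio (1.45, 1.5 and 1.5). The log2 difference was 0.56 ± 0.10 (SE; adjusted p = 0.0187 by limma). The call was lost with layer alone in the model (adjusted p = 0.328), without the filter (0.3), without the trend (0.0738) and without brain 1 (0.106).

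The MDGA proteins bind neuroligins and block their contact with neurexins. Mdga2, at 59.9 ± 10.3 RPKM in ULAs and 56.6 ± 13.1 RPKM in DLAs (SD, n = 3 libraries per layer), was below Nlgn1 but above the other 8 genes, with a log2 difference of 0.09 (adjusted p = 0.807 by limma). Mdga1 was near 1 RPKM, at 0.873 ± 0.0231 and 1.22 ± 0.0781 RPKM in the 2 layers. Its DLA libraries all lay above its ULA libraries, as in 9.27% of all tested rows, and its log2 difference of −0.24 did not pass (adjusted p = 0.477).

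Glypicans are heparan sulfate proteoglycans, some of which astrocytes release to promote synapses, and 5 of 6 were tested, with 0 calls and a median log2 difference of 0.22. Gpc5 was the most abundant, at 813.04, 1177.1 and 700.65 RPKM in the ULAs and 814.79, 818.23 and 807.97 RPKM in the DLAs. As for Nlgn1, the ULA library of brain 2 stood apart while the DLA libraries were nearly equal, and Gpc5 also has a long span (1433.0 kb). Its log2 difference was 0.11 ± 0.13 (SE; adjusted p = 0.737 by limma). Gpc6 was at 41.7 ± 9.49 and 37.8 ± 4.07 RPKM (SD, n = 3 libraries per layer; adjusted p = 0.687).

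Among other synaptic adhesion genes, 22 of 32 were tested, with 1 call, for Ntng1, and a median log2 difference of 0.05. Ntng1 encodes netrin-G1, a membrane-anchored protein that binds a leucine-rich repeat partner across the synapse. It was at 3.2, 4.66 and 2.17 RPKM in the ULAs and at 1.4, 1.45 and 1.08 RPKM in the DLAs. Every ULA library was above every DLA library, as in 6.59% of all tested rows. The log2 difference was 0.87 ± 0.17 (SE; adjusted p = 0.0305 by limma). The call was lost with layer alone in the model (adjusted p = 0.232), without the filter (0.408), with the trend on mRNA length removed (0.0543) and without brain 2 (0.0942). Ntng1 spans 363 kb, and its log2 difference was 0.81, 1.21 and 0.61 in brains 1, 2 and 3. With the trend on genomic span removed, its fitted difference was 0.78 (adjusted p = 0.0359 by limma). Lphn3, a latrophilin that binds FLRT and teneurin proteins, was at 55.4 ± 9.16 and 54.4 ± 9.49 RPKM (SD, n = 3 libraries per layer; adjusted p = 0.951). Il1rapl1, a partner of receptor tyrosine phosphatases, was at 41.8 ± 9.79 and 29.7 ± 2.37 RPKM (adjusted p = 0.174), with no overlap between the layers. It spans 1368.4 kb, its log2 difference was 0.38, 0.93 and 0.07 in brains 1, 2 and 3, and its adjusted p ran from 0.00137 (without brain 3) to 0.512 over the alternatives.

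Intracellular scaffolds of synapses, among them those that bind the tails of neurexins and neuroligins, were tested for 14 of 22 genes, with 0 calls and a median log2 difference of 0.09. Gphn, which encodes gephyrin of inhibitory synapses, was at 76.5 ± 6.03 and 74.2 ± 20.6 RPKM (SD, n = 3 libraries per layer; adjusted p = 0.828 by limma), while Nlgn2 was under 1 RPKM. Magi2, a scaffold with PDZ domains, was at 59.6 ± 11.6 and 59.2 ± 6.61 RPKM (adjusted p = 1). Of the listed proteases that cut membrane proteins, Adam10, which acts on neuroligins, was at 15.4 ± 1.64 and 13.6 ± 2.68 RPKM (adjusted p = 0.515) and Bace1 was at 14.0 ± 1.09 and 11.9 ± 1.03 RPKM (adjusted p = 0.362). Khdrbs1 and Khdrbs3, which encode regulators of neurexin splicing, were at 5.59 ± 0.174 and 5.42 ± 0.697 RPKM and at 4.92 ± 1.18 and 5.12 ± 1.11 RPKM, and neither was changed (adjusted p = 0.904 and 0.88). RPKM per gene does not show splice forms, which decide which partners a neurexin binds.

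The rows whose pattern over the 6 libraries was most like that of Nlgn1 included 4930480K15Rik, Kdm4c, Exoc4 and Auts2, with Pearson's r of 0.9844 to 0.9880 on the log2(RPKM + 1) scale, and 131 rows had r over 0.9. Each of these 4 was highest in the ULA library of brain 2, and they include a gene with a span of 1104.7 kb (Auts2) as well as a row of 5.93 kb (4930480K15Rik). For Nlgn3 the closest rows were Gm2a, Tgfbr2, Fgfr3, row 319543 and Greb1 (r of 0.9890 to 0.9987), and 265 rows had r over 0.9. Fgfr3, an astrocyte receptor for fibroblast growth factors, was at 334.18, 275.59 and 297.16 RPKM in the ULAs and 244.65, 207.02 and 229.21 RPKM in the DLAs of brains 1, 2 and 3, so that brain 1 was highest and brain 2 lowest in each layer, as for Nlgn3. Among the tested genes themselves, Nlgn1 had r of 0.65 with Nrxn3, 0.18 with Nlgn3, 0.17 with Lrrtm2 and −0.10 with Nrxn2. These correlations over 6 libraries that share 3 brains are a description.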

How the data were processed

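The authors deposited RPKM values and the mRNA length of each row for 6 libraries (SMART-Seq v4 and Nextera XT kits, single reads). The submitters' processing notes name bcl2fastq 1.8.4, CASAVA 1.8.2 and build mm9. The aligner, counting program and use of strand are not given in the sources used here. Starts were converted to 1-based positions. RPKM in short rows came in steps of 1 read, which gave the depth and the read numbers, used for precision only. Read numbers cover counting error only.

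Rows with a mean of at least 1 RPKM were tested on log2(RPKM + 1) with limma 3.58.1 in R 4.3.3 (intensity trend, brain and layer as terms), tested on simulated data first. The replicate number was taken as the brain: libraries of the same number deviated together (r = 0.42, 0.33 and 0.34, against −0.20 to −0.16 between different numbers), and the study used 3 brains. Tables and figures used Python 3.11.15, pandas 2.3.3, numpy 2.4.6 and matplotlib 3.10.9.

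Named were all 9 genes, partners past the threshold, the 2 most abundant genes of each partner list, and the 5 rows most like Nlgn1 (highest level) and Nlgn3 (largest difference). Some genes that met this rule are not reported here. The antisense rows, Ctnna3 and Lrfn4 were chosen after their values were seen. Genes and lists were chosen with earlier results of these data known. Alternatives were no brain term, other pseudocount, filters, centring, quantile normalization, length or span correction, no trend, and each brain left out.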

Additional observations from a re-analysis of the deposited data

How the results depend on the processing

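Of 79 values of the 9 genes under 12 alternatives, 7 values of tested genes turned direction, 1 value of an untested gene moved, and the other 71 kept their direction or, for untested genes, stayed within 1 SD. Among these untested genes, Lrrtm4 went from −0.04 to 0.03 without brain 3 and Lrrtm3 from −0.00 to 0.03 without brain 2. Of the tested genes that turned, Nrxn3 was −0.05 with the mRNA length correction and −0.08 with the genomic span correction, Lrrtm2 was −0.08 with the mRNA length correction, and with each brain left out Nrxn3 ran from −0.18 to 0.23, Nlgn1 from −0.01 to 0.38 and Lrrtm2 from −0.18 to 0.28. Lrrtm1 was 0.51 with a pseudocount of 0.1 RPKM. No tested gene was changed in any alternative that tested it, and 4 of the 9 were tested only without the filter.

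Over all rows, 100 were higher in ULAs and 128 in DLAs. Without the replicate block these were 23 and 18 (1409 rows at an unadjusted limma p under 0.05), without the filter on low RPKM 0 and 0 (2799 rows at an unadjusted limma p under 0.05), and without the trend 65 and 79. The mRNA length correction gave 78 rows higher in DLAs, and quantile normalization turned the split to 138 and 103. With each brain left out the counts ran from 104 to 426 and from 126 to 687, the highest without brain 3. Partners higher in ULAs numbered 2, against 0 without the replicate block or the filter, 1 with a mean of at least 5 RPKM (which leaves out Ntng1 and Lrrtm2), with the mRNA length correction or without the trend, and 1 to 6 with each brain left out. Partners higher in DLAs numbered 0, against 1 (Lrfn4) with a pseudocount of 0.1 RPKM and 0 to 1 with each brain left out, the 1 being Lrfn4 without brain 3. The causes of these shifts were not tested. With 3 libraries per layer, and 2 to 33 reads on Lrrtm4, differences may go uncalled even where they are not small, also for the 5 tested genes.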
